A study of Arabidopsis thaliana with 15 samples.

Results

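AT3G24240, AT1G34110 and AT1G75640 are Arabidopsis genes for leucine-rich repeat receptor kinases, and each is read by 1 probe set among the 22746 of the ATH1 array that were tested, so that 3 probe sets are described here; 13286 genes had a named probe set. They were chosen from measured values of these arrays: their transcripts were higher after NAA than before treatment, and higher at 6 h than at 2 h of naxillin. In all, 29 probe sets, 0.127% of those tested, were called higher in all 3 of these comparisons (NAA 2 h and NAA 6 h against before, naxillin 6 h against naxillin 2 h); 17 of the 29 have 1 named gene, and 3 of those are the genes described here. These comparisons draw on all 5 groups, so every difference of the 3 genes is given as a description, with the standard error (SE) of the fit and no test. Tests are given for other receptor kinases, with p-values from limma adjusted over all tested probe sets.

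Leucine-rich repeat receptor kinases are membrane proteins with an outer domain of repeats, which binds peptides, steroids or co-receptors, and a kinase domain inside the cell. Arabidopsis has a large family of them, with members that act in growth, development and defence. In roots, peptides of several families signal through such receptors, and receptor kinases of this class take part in keeping the root meristem and in the early divisions and spacing of lateral root founder cells. Auxin starts those divisions in the pericycle.

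The roots came from Col-0 seedlings taken through the lateral root inducible system, in which NPA, a blocker of polar auxin transport, holds back lateral root formation until an inducing compound is given. All 5 groups shared 3 days of growth on 10 µM NPA. The before group (NPA) was taken at that point, and the other groups after 2 h or 6 h on 10 µM NAA, a synthetic auxin, or on 50 µM naxillin, which the labels describe as a lateral root inducer that is not auxin-like. Each group had 3 arrays from 3 independent experiments, and each sample pooled 500 root sections cut without meristems. A group transferred without either compound was not analysed here, so in every comparison with the roots before treatment the compound cannot be told apart from the transfer and the elapsed time. The compounds were given at different concentrations, so a difference between them is a difference between these treatments. Levels are log2 values, on which 1 unit is a factor of 2; in a whole tissue, more cells with a transcript and more transcript per cell cannot be told apart. Array medians lay between 7.08 and 7.18, lower quartiles between 4.69 and 4.80, and replicates correlated at 0.984 to 0.996 over all tested probe sets.

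Other cell types in the sections could be followed with few markers, since only 2 of 4 listed root hair genes and 2 of 5 listed shoot genes had a named probe set, and none of the 3 endodermis, 5 vascular or 5 meristem and root cap genes had one. The 2 root hair genes, EXPA7 and EXPA18, had a summed level of 7.84 to 8.34 before, 8.56 to 9.22 at NAA 2 h, 6.63 to 7.15 at NAA 6 h, 9.00 to 10.15 at naxillin 2 h and 8.02 to 8.93 at naxillin 6 h (log2, range of 3 arrays). The 2 shoot genes, LHCB4.2 and RCA, which serve photosynthesis, had a summed level of 11.09 to 11.50 before, 10.40 to 10.70 at NAA 2 h, 8.94 to 9.40 at NAA 6 h, 10.31 to 10.94 at naxillin 2 h and 10.55 to 11.06 at naxillin 6 h. Both sums were thus lowest at NAA 6 h, the group in which the 3 kinase transcripts were highest. The part of other cell types in the differences below was not tested.

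AT3G24240 lies on chromosome 3 at positions 8780238 to 8784453 of the TAIR10.1 assembly. RefSeq lists all 3 genes by their locus tags alone. Its level was 7.42, 6.98 and 7.99 on the 3 arrays before treatment. At NAA 2 h it was 10.83, 10.90 and 10.96, and at NAA 6 h it was 11.65, 11.77 and 11.61. At naxillin 2 h the arrays gave 7.74, 8.21 and 8.39, and at naxillin 6 h they gave 9.25, 8.86 and 9.52. All 6 NAA arrays were above all arrays of the other groups, the naxillin 6 h arrays lay between, and the naxillin 2 h arrays overlapped those before treatment.

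The mean level of AT3G24240 was 7.46 ± 0.50 before (SD, n = 3 in each group), 10.90 ± 0.07 at NAA 2 h and 11.68 ± 0.08 at NAA 6 h. With naxillin it was 8.11 ± 0.34 at 2 h and 9.21 ± 0.33 at 6 h. Before treatment the probe set stood above 54.2% of the probe sets of its arrays, and at NAA 6 h above 97.3%. The difference from before was 3.44 at NAA 2 h (SE 0.23), a factor of 10.8, and 4.21 at NAA 6 h, a factor of 18.6. Among all 22746 probe sets these were the 34th and the 76th largest rises.

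Naxillin gave AT3G24240 a smaller difference that grew with time. At 6 h it was 1.75 log2 units above before (SE 0.23), a factor of 3.35 and the 11th largest rise of all probe sets in that comparison, and it was 1.10 above naxillin 2 h, a factor of 2.14. At 2 h the difference from before was 0.65 (SE 0.23), a factor of 1.57 with overlapping arrays. It was 0.91 without replicate 3 before treatment and 0.41 at the lowest with another array left out.

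AT1G34110 lies on chromosome 1 at positions 12417012 to 12421792. Its level before treatment was 6.36, 6.20 and 6.51. NAA gave 9.61, 8.95 and 9.47 at 2 h and 10.71, 10.59 and 10.44 at 6 h. Naxillin gave 6.14, 5.96 and 5.59 at 2 h and 6.73, 6.46 and 6.68 at 6 h. All NAA arrays were above all others; the naxillin 6 h arrays were above those of naxillin 2 h, but overlapped the arrays before treatment.

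The group means of AT1G34110 were 6.36 ± 0.15 before (SD, n = 3 in each group), 9.34 ± 0.35 at NAA 2 h, 10.58 ± 0.13 at NAA 6 h, 5.90 ± 0.28 at naxillin 2 h and 6.63 ± 0.14 at naxillin 6 h. The difference from before was 2.98 at NAA 2 h (SE 0.17), a factor of 7.89, and 4.22 at NAA 6 h, a factor of 18.6, the 61st and 75th largest rises. Here the mean at naxillin 2 h was below that before treatment, though the naxillin 2 h values helped to choose the gene. At naxillin 2 h all 3 arrays were below all 3 before treatment, by 0.06 at the closest, and the difference was -0.46 (SE 0.17). Of all probe sets, 6.16% were called lower in this comparison, and the share without overlap is not given here. The level at naxillin 6 h was 0.73 above naxillin 2 h, a factor of 1.66, but only 0.27 above before (SE 0.17), a factor of 1.2 with overlapping arrays.

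AT1G75640 lies on chromosome 1 at positions 28403371 to 28407182. Before treatment its level was 5.96, 5.65 and 6.28. With NAA it was 9.04, 8.45 and 9.13 at 2 h and 10.40, 10.33 and 10.21 at 6 h. With naxillin it was 6.07, 5.63 and 5.66 at 2 h and 6.72, 6.47 and 6.71 at 6 h. The naxillin 6 h arrays were above those before treatment and those of naxillin 2 h, while these last overlapped each other.

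The means of AT1G75640 were 5.96 ± 0.32 before (SD, n = 3 in each group), 8.87 ± 0.37 at NAA 2 h, 10.31 ± 0.10 at NAA 6 h, 5.79 ± 0.25 at naxillin 2 h and 6.63 ± 0.14 at naxillin 6 h. NAA differed from before by 2.91 at 2 h (SE 0.19), a factor of 7.51, and by 4.35 at 6 h, a factor of 20.4, the 65th and 66th largest rises. Naxillin 6 h was 0.67 above before, a factor of 1.59, and 0.85 above naxillin 2 h, a factor of 1.8. At naxillin 2 h the difference from before was -0.18 (SE 0.19). Before treatment AT1G75640 and AT1G34110 stood above 38.1% and 41.7% of the probe sets of their arrays, and the deposited values give no call of whether a probe set is above background.

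**Figure D1:**
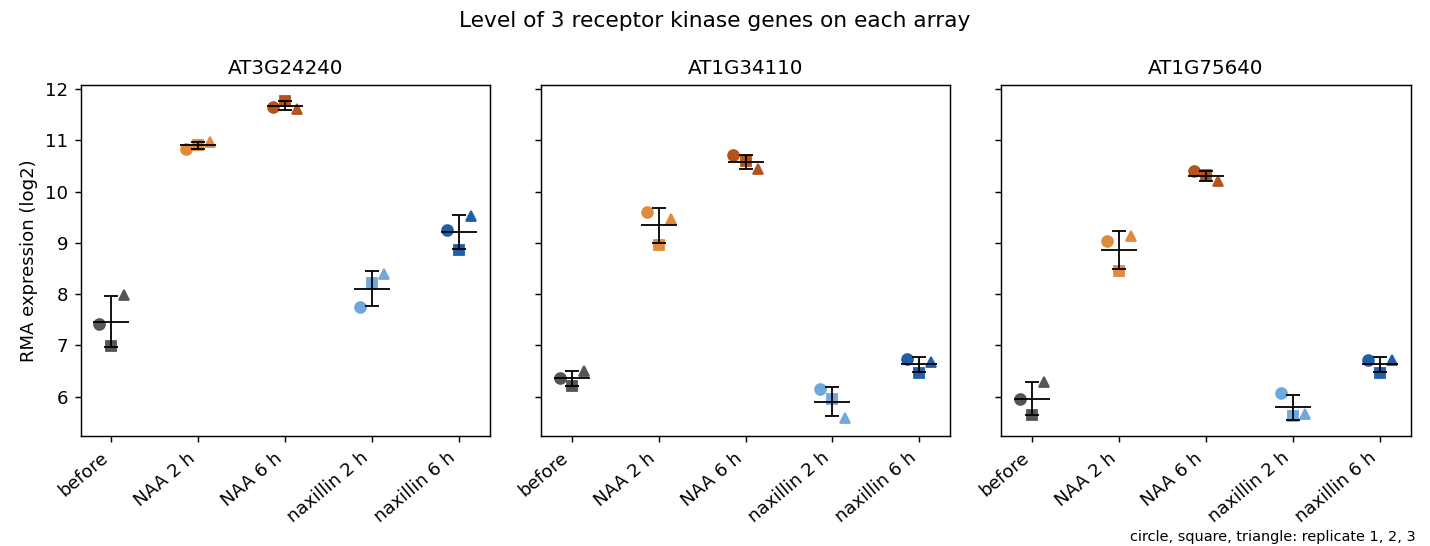
Log2 level of AT3G24240, AT1G34110 and AT1G75640 on each of the 15 arrays, by group. Points are arrays, horizontal marks are group means and vertical bars are the SD of the arrays of a group. The NAA arrays are highest for all 3 genes, and AT3G24240 alone has naxillin 6 h arrays (8.86 to 9.52) more than 0.5 above the highest array before treatment (7.99).

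From lowest to highest mean, AT3G24240 ran from before through naxillin 2 h, naxillin 6 h and NAA 2 h to NAA 6 h, and the neighbours before and naxillin 2 h overlapped. AT1G34110 ran from naxillin 2 h through before, naxillin 6 h and NAA 2 h to NAA 6 h, and before and naxillin 6 h overlapped. AT1G75640 had the same order as AT1G34110, with an overlap between naxillin 2 h and before. The step from naxillin 6 h up to NAA 2 h was free of overlap in all 3 genes. The closest arrays were 1.31 apart for AT3G24240, 2.22 for AT1G34110 and 1.73 for AT1G75640. How many of all probe sets show such a step was not counted.

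Between 2 h and 6 h of NAA all 3 transcripts were higher at the later time, with the 3 arrays of NAA 6 h above the 3 of NAA 2 h in each gene. Such rises were common, as 19.9% of all probe sets were called higher in this comparison. The difference was 0.78 for AT3G24240 (SE 0.23), a factor of 1.71. It was 1.24 for AT1G34110 (SE 0.17), a factor of 2.36, and 1.44 for AT1G75640 (SE 0.19), a factor of 2.72.

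At 6 h all 3 transcripts were lower with naxillin than with NAA, again with no overlap of arrays. Of all probe sets, 23.5% were called lower in this comparison. The share of all probe sets without overlap is not given here. AT3G24240 was lower by a factor of 5.53, a difference of -2.47 (SE 0.23). AT1G34110 was lower by a factor of 15.5, a difference of -3.95 (SE 0.17), and AT1G75640 by a factor of 12.8, a difference of -3.68 (SE 0.19). At 2 h the differences between naxillin and NAA were -2.79, -3.44 and -3.08 for AT3G24240, AT1G34110 and AT1G75640. From naxillin 2 h to naxillin 6 h the rises of AT3G24240, AT1G75640 and AT1G34110 were the 35th, 100th and 147th largest of all probe sets.

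**Figure D2:**
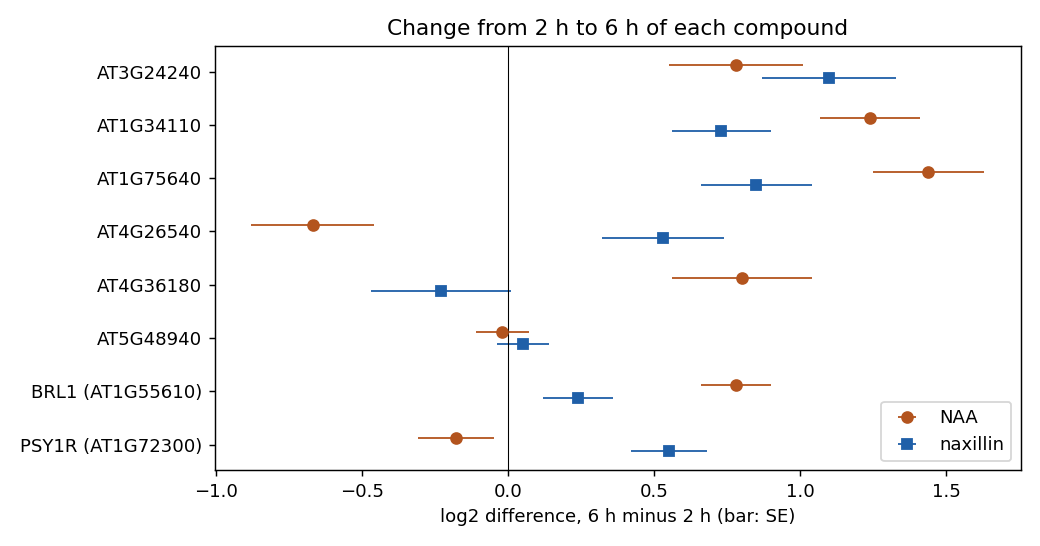
Log2 change from 2 h to 6 h of NAA (circles) and of naxillin (squares) for the 3 genes and 5 other receptor kinases; bars are the standard error of the fit. AT3G24240 has the larger value with naxillin (1.10 against 0.78), AT1G34110 (0.73 against 1.24) and AT1G75640 (0.85 against 1.44) with NAA.

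The change from 2 h to 6 h of naxillin minus that of NAA was 0.32 for AT3G24240 (SE 0.32), -0.51 for AT1G34110 (SE 0.24) and -0.59 for AT1G75640 (SE 0.27); whether the genes differ in it was not tested. With the arrays scaled on spiked-in bacterial transcripts the values were -0.01, -0.83 and -0.92. Over the 15 arrays AT1G34110 and AT1G75640 correlated at 0.994 (Pearson's r), and AT3G24240 correlated with them at 0.935 and 0.955. Of the arrays' deviations from their group means, which leave out the treatments, the r was 0.86 for AT1G34110 with AT1G75640, 0.08 for AT3G24240 with AT1G34110 and 0.32 for AT3G24240 with AT1G75640. The points share their arrays and their normalisation.

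The genes most like each one were taken as the 5 named probe sets with the highest r over the 15 arrays, among 3196 whose group means spanned at least 1 log2 unit. For AT1G34110 they were AT1G75640 (0.994), AT3G58180 (0.992), AT5G51380 (0.991), BRL1 (0.991) and AT4G17350 (0.989). For AT1G75640 they were AT1G34110 (0.994), AT5G51380 (0.992), AT1G68400 (0.986), AT3G54790 (0.986) and AT3G51530 (0.983). AT1G34110 and AT1G75640 were each other's closest match. BRL1 is itself a leucine-rich repeat receptor kinase, of the brassinosteroid receptor family. Whether the unlisted matches are also such kinases was not looked up. One of them, AT1G68400, was 3.32 and 4.28 above before at NAA 2 h and 6 h, close to the values of the described genes.

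For AT3G24240 the closest were AT1G68400 (0.977), LBD29 (0.976), AT5G17340 (0.974), AT1G64405 (0.971) and AT5G47060 (0.971). LBD29 is a transcription factor of lateral root initiation. Its mean level was 6.73 before, 12.11 and 12.42 at NAA 2 h and 6 h, and 7.29 and 8.22 at naxillin 2 h and 6 h, so that it too was higher at 6 h than at 2 h of naxillin. At naxillin 6 h against before, LBD29 was at 1.50 and AT5G17340 at 1.79, beside the 1.75 of AT3G24240, while AT1G64405, AT1G68400 and AT5G47060 were at 0.73, 0.88 and 0.90. The genes closest to AT1G34110 or AT1G75640, AT1G68400 again among them, lay from -0.04 (AT3G58180) to 0.88 (AT1G68400). All were picked for their likeness over these same arrays.

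**Figure D3:**
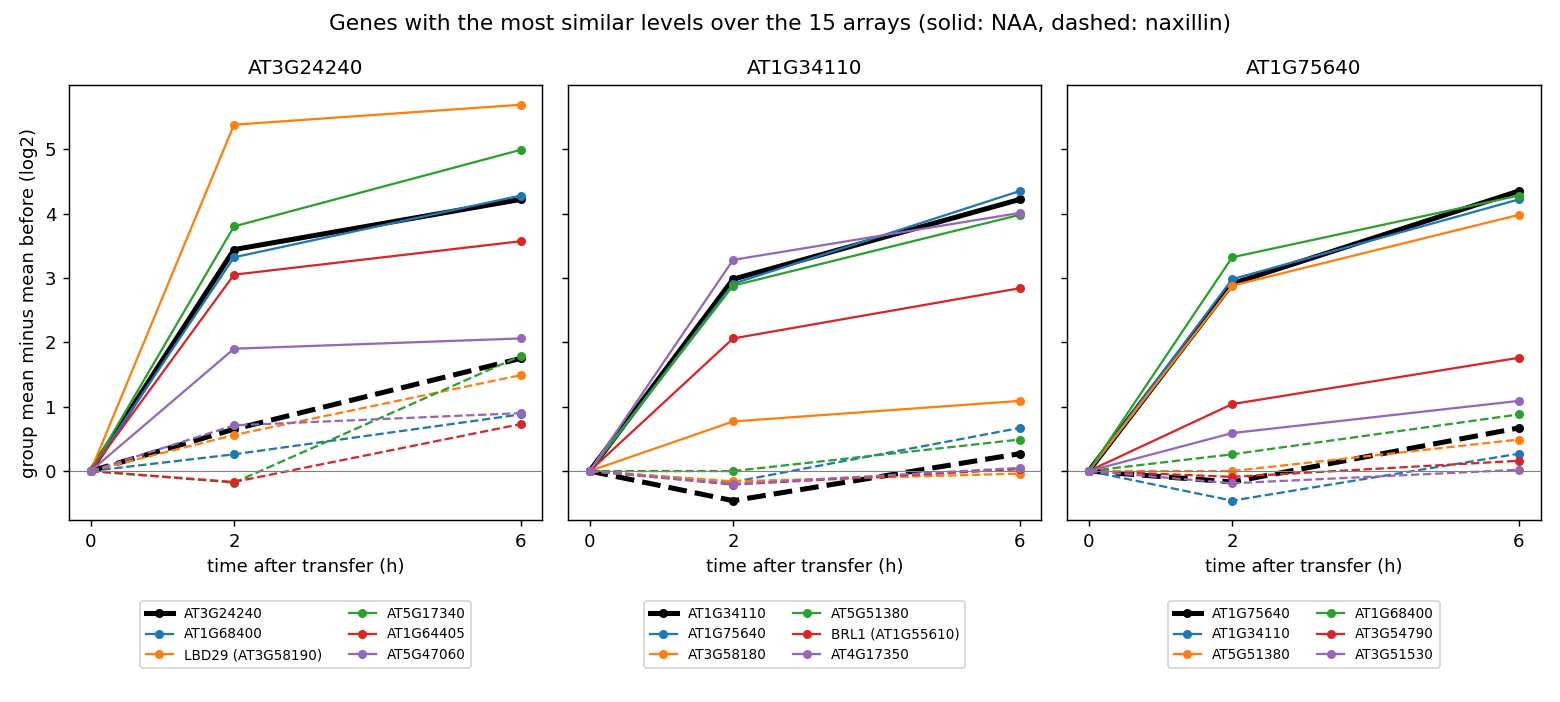
Group means minus the mean before treatment (log2) against time after transfer, for each of the 3 genes (black) and the 5 genes with the most similar levels; solid lines are NAA, dashed lines naxillin. At naxillin 6 h the 5 genes beside AT3G24240 end between 0.73 and 1.79, and those beside AT1G34110 and AT1G75640 between -0.04 and 0.88; likeness over these arrays chose them.

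Among 45 other listed leucine-rich repeat receptor kinases, 14 had a named probe set and could be set beside the 3. At NAA 2 h against before, limma called 2 of the 14 higher and 3 lower, with a median difference of 0.06 against -0.03 for all probe sets, of which 10.5% were called higher and 15.3% lower. At NAA 6 h it called 5 higher and 4 lower, with a median of 0.10 against -0.03, where 22.8% of all were called higher and 29.4% lower. Scaled on the spiked-in transcripts the 5 higher became 9 and the 4 lower became 2. That scaling also shifted the median of all probe sets by 0.28, and the shares of all called under it are not given here. Without replicate 1 before treatment, or without replicate 2 of NAA 2 h, 1 of the 3 lower at NAA 2 h remained. AT4G28650, 1 of the 3 (-0.43, limma, adjusted p = 0.0491), lost its call in 5 of the 6 fits without 1 array. It lost the call too when scaled on the spiked-in transcripts (-0.34, limma, adjusted p = 0.163) or on array medians (-0.39, limma, adjusted p = 0.0716).

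At naxillin 2 h against before limma called 0 of the 14 higher and 1 lower (3 at an unadjusted p under 0.05), where 4.40% of all probe sets were called higher and 6.16% lower. At naxillin 6 h against before it called 0 either way (4 at an unadjusted p under 0.05), where the shares of all were 0.580% and 0.382%. The medians were -0.02 and 0.02, against -0.03 for all probe sets. From 2 h to 6 h of naxillin limma called 1 of the 14 higher and 0 lower (3 at an unadjusted p under 0.05), where the shares of all were 0.813% and 1.47%; the 1 was not called when any 1 of the 6 arrays was left out. At 6 h naxillin against NAA, 3 were called higher and 5 lower, where 27.2% of all were called higher and 23.5% lower. The 5 became 9 when scaled on the spiked-in transcripts, which shifted the median of all probe sets by -0.35. The share of all called lower under that scaling is not given here.

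Close relatives of the 3 genes by sequence family did not share one pattern. AT4G26540, a relative of AT3G24240 and AT1G34110, had levels of 7.00, 6.44 and 6.63 before and 8.98, 8.69 and 8.29 at NAA 2 h, with no overlap. It rose by 1.96 (SE 0.21) at NAA 2 h (limma, adjusted p = 1.73e-05) and was 1.30 above before at NAA 6 h (limma, adjusted p = 0.000123). Its change from NAA 2 h to 6 h was -0.67 (limma, adjusted p = 0.0207), in the other direction from the 3 genes. It was not called without replicate 1 or 2 of NAA 2 h or replicate 1 or 3 of NAA 6 h (adjusted p 0.0572 to 0.103), nor when scaled on the spiked-in transcripts (-0.49; adjusted p = 0.0734). With naxillin it was 0.60 above before at 6 h (limma, adjusted p = 0.232) and 0.53 above naxillin 2 h (limma, adjusted p = 0.256). Neither was called. The arrays did not overlap in either comparison, but the share of all probe sets without overlap is not given here. Of the alternatives, array weights alone called them, at 0.71 (limma, adjusted p = 0.0131) and 0.75 (limma, adjusted p = 0.00497). Its mean was higher at naxillin 6 h than at 2 h, as in the 3 genes, but the main fit did not call this difference. The difference between its time changes, 1.20, passed the test (limma, adjusted p = 0.00771), in a comparison where 30.3% of all probe sets were called either way. Another relative, AT5G48940, stayed between 4.28 and 4.66 on all 15 arrays, below the arrays' lower quartiles. The main fit called it in no comparison tested. Scaled on the spiked-in transcripts it was called at NAA 6 h against before (0.38, limma, adjusted p = 0.00443). So it was at naxillin 6 h against NAA 6 h (-0.36, limma, adjusted p = 0.00631). That scaling shifted the median of all probe sets by 0.28 and -0.35 in these comparisons.

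AT4G36180, a relative of AT1G75640, had levels of 7.91, 7.75 and 8.34 before and 9.41, 9.35 and 9.43 at NAA 6 h. It rose by 1.40 at NAA 6 h (SE 0.24; limma, adjusted p = 0.000165), with no overlap of arrays. At NAA 2 h the difference was 0.59 (limma, adjusted p = 0.0841), called without replicate 3 before treatment (0.76; limma, adjusted p = 0.0484) or without replicate 2 of NAA 2 h (0.82; limma, adjusted p = 0.0266). From 2 h to 6 h of naxillin its level differed by -0.23 (limma, adjusted p = 0.744), where AT1G75640 was 0.85 higher. At 6 h it was lower with naxillin than with NAA by 1.76 (limma, adjusted p = 2.08e-05).

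BRL1 had the largest rises with NAA among the 14. Its level was 7.01, 7.12 and 6.99 before, 9.05, 8.92 and 9.32 at NAA 2 h and 9.97, 9.86 and 9.81 at NAA 6 h. It rose by 2.06 at NAA 2 h (SE 0.12; limma, adjusted p = 5.36e-08) and by 2.84 at NAA 6 h (limma, adjusted p = 3.38e-10). At naxillin 6 h it was 0.04 from before (limma, adjusted p = 0.928) and 0.24 above naxillin 2 h (limma, adjusted p = 0.394). At naxillin 2 h it was -0.20 from before (limma, adjusted p = 0.342). The rises of BRL1 with NAA were factors of 4.17 and 7.18, beside 7.89 and 18.6 for AT1G34110.

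PSY1R, a receptor kinase linked to the tyrosine-sulfated peptide PSY1, was the 1 of the 14 called from 2 h to 6 h of naxillin. Its level was 9.36, 9.04 and 9.33 before, 8.45, 8.43 and 8.35 at naxillin 2 h and 8.85, 8.84 and 9.20 at naxillin 6 h. It fell by 0.84 at naxillin 2 h (SE 0.13; limma, adjusted p = 0.00177), then rose by 0.55 to 6 h (limma, adjusted p = 0.0432). That rise lost its call without any 1 of the 6 arrays (adjusted p 0.0603 to 0.154). The level at naxillin 6 h overlapped that before treatment, as it did for AT1G34110.

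The listed kinases that were lower with NAA included PXL1 (AT1G08590), a relative of the vascular receptor PXY, and GSO1 (AT4G20140), a receptor that acts in barrier formation. PXL1 fell by 1.43 at NAA 2 h (limma, adjusted p = 6.9e-08) and by 1.73 at NAA 6 h (limma, adjusted p = 1.88e-09). GSO1 fell by 0.46 at NAA 2 h (limma, adjusted p = 0.0146), not called without replicate 1 before treatment (0.0635) or replicate 2 of NAA 2 h (0.065), and by 0.81 at NAA 6 h (limma, adjusted p = 6.39e-05). PXL2 (AT4G28650), another relative of PXY, fell by 0.55 at NAA 6 h (limma, adjusted p = 0.00628), and lost that call when scaled on the spiked-in transcripts (-0.28; adjusted p = 0.145). CR4 (AT3G59420), a receptor kinase without leucine-rich repeats that was on a list of peptide receptors, was 5.36, 5.13 and 5.35 before and 6.61, 6.56 and 6.99 at NAA 6 h, a rise of 1.44 (limma, adjusted p = 1.58e-06).

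**Figure D4:**
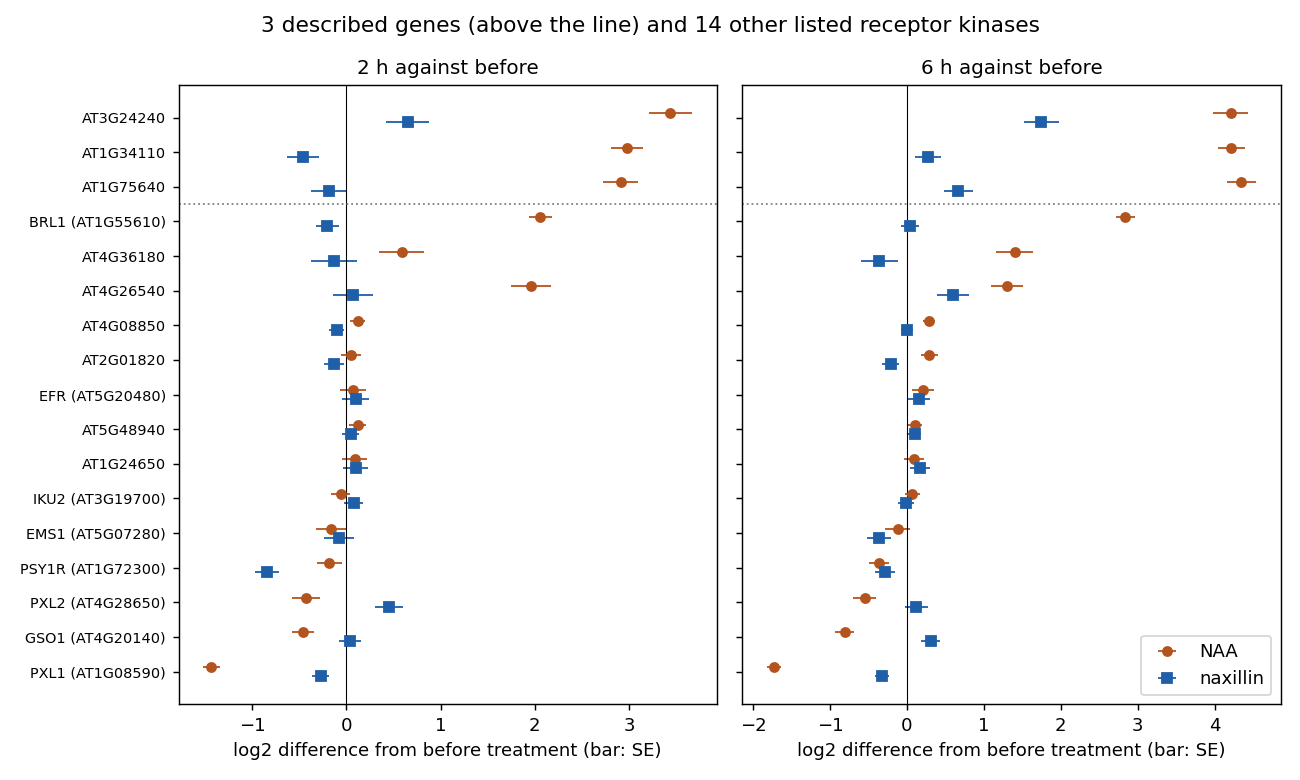
Log2 differences from before treatment for the 3 genes and the other listed receptor kinases with a named probe set, with NAA and with naxillin at 2 h and 6 h; bars are the standard error of the fit. With NAA the 3 genes reach 4.21 to 4.35 at 6 h and BRL1 2.84. With naxillin AT3G24240 reaches 1.75 at 6 h. Genes outside the lists, such as AT1G68400 (4.28 at NAA 6 h), are not drawn, and whether they are receptor kinases was not looked up.

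Of the genes that make or carry the signals of root meristem growth factor peptides, a family that signals through leucine-rich repeat receptor kinases, few could be read. None of 9 listed peptide genes had a named probe set, and of 17 genes for peptide processing and downstream signalling only BBM had one. BBM, a transcription factor of root and embryo growth, had group means between 3.81 and 3.99 and was not called by the main fit in any comparison tested. Scaled on the spiked-in transcripts it was called at NAA 6 h against before (0.37, limma adjusted p = 0.0163) and against NAA 2 h (0.36, limma adjusted p = 0.0268). The same held for naxillin 6 h against NAA 6 h (-0.43, limma adjusted p = 0.00633). In these comparisons that scaling shifted the median of all probe sets by 0.28, 0.18 and -0.35.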

How the data were processed

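The deposited values are log2 expression values per probe set, 1 column per ATH1 array for 15 arrays; per the submitters' processing notes the authors made them with RMA in affy 1.36.0, which corrects background, normalises by quantiles and summarises probe sets. Per the labels' protocols, bacterial transcripts were spiked into 2 µg of each total RNA before labelling with biotin. Of 22810 probe sets, 64 controls were left out. Naming needed exactly 1 gene in the platform annotation that matched RefSeq (TAIR10.1), which held for 13436 probe sets; 503 had several genes and 8730 none.

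Groups follow the compound and time in the labels. limma 3.58.1 in R 4.3.3 was fitted to all 15 arrays with 1 mean per group (10 residual degrees of freedom); tests were two-sided, Benjamini-Hochberg adjustment ran over 22746 probe sets and calls were made at an adjusted p under 0.05. The fit was tested on simulated data. Figures used matplotlib 3.10.9 (Python 3.11.15). The number of arrays limits the precision. Alternatives were a replicate block, only the arrays of a contrast, array weights, other scalings, a filter on dim probe sets, at least 2-fold, and leaving out each array.

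Tests of the 3 genes had been planned for naxillin 2 h against before, NAA 6 h against NAA 2 h and naxillin 6 h against NAA 6 h, but these share groups with the comparisons that chose the genes and are given without p. The genes and lists were chosen with earlier results of these data known. Named genes were the 3 genes, the listed members of their subfamilies, called members of the other receptor and signalling lists (those called with naxillin from 2 h to 6 h, otherwise the largest at NAA 6 h), and the 5 most alike. Protein sequences and gene descriptions, meant to define all leucine-rich repeat kinases, were not used here; the 45 listed ones stand in, and the named ones of these are further limited to the 14 with a named probe set. Some of their calls were named after their values were seen.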

Additional observations from a re-analysis of the deposited data

Results flagged for a closer look

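For 8 of the listed genes the change from 2 h to 6 h differed between naxillin and NAA by limma's test of the difference itself. Each had 3 arrays per group, and p was adjusted over all probe sets. Of the genes named only for their likeness, AT5G51380 (-0.61), AT4G17350 (-0.48) and AT3G54790 (-0.46) were also called (limma, adjusted p = 0.00887, 0.0156 and 0.0326). The values are the change with naxillin minus that with NAA, in log2 units. Among leucine-rich repeat receptor kinases they were 1.20 for AT4G26540 (limma, adjusted p = 0.00771), -1.03 for AT4G36180 (limma, adjusted p = 0.031) and -0.54 for BRL1 (AT1G55610; limma, adjusted p = 0.0272). They were 0.62 for GSO1 (AT4G20140; limma, adjusted p = 0.0147) and 0.74 for PSY1R (AT1G72300; limma, adjusted p = 0.00796). CR4 (AT3G59420), a receptor kinase of another class, gave -1.19 (limma, adjusted p = 0.000757). The marker genes EXPA7 (AT1G12560, root hairs) and RCA (AT2G39730, photosynthesis) gave 1.39 (limma, adjusted p = 0.0201) and 1.55 (limma, adjusted p = 0.000246). Of all probe sets, 30.3% were called in this comparison. Of the 14 listed leucine-rich repeat receptor kinases with a named probe set, 3 were called higher and 2 lower. The shares of all were 15.1% and 15.2%. Among the markers, 1 of 2 root hair genes and 1 of 2 shoot genes were called.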

How the results depend on the processing

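Of the recomputed differences of the 3 genes, 396 kept their direction and moved by less than the spread between replicates, 8 moved by more and 1 reversed, all 9 under poly-A scaling. Many of the 396 could not move and say nothing about stability. A replicate block, another estimate of the spread, the filter on dim probe sets and only the arrays of a contrast leave differences of group means unchanged. So does leaving out an array before treatment for the difference between time changes. Scaling on the poly-A spike-in probe sets shifted the median of all probe sets by 0.28 at NAA 6 h against before, 0.18 at NAA 6 h against NAA 2 h, -0.35 at naxillin 6 h against NAA 6 h and -0.33 in the difference between time changes. It gave 4.50 for AT1G34110 and 4.63 for AT1G75640 at NAA 6 h against before; the differences between time changes became -0.83 and -0.92, and that of AT3G24240 reversed to -0.01. At naxillin 6 h against NAA 6 h it gave -2.81, -4.30 and -4.02 for AT3G24240, AT1G34110 and AT1G75640, and at NAA 6 h against NAA 2 h 0.96 for AT3G24240. Of the 14 listed kinases, the 5 called higher at NAA 6 h became 9 with poly-A scaling and 3 at 2-fold or more. With array weights 1 was higher and 2 were lower at naxillin 2 h, and 1 was higher and 2 were lower at naxillin 6 h. From 2 h to 6 h of naxillin, array weights called 2 higher and 1 lower. The number called higher there was 0 with poly-A scaling, with only the arrays of the contrast and at 2-fold or more. It was also 0 without each array (0 to 0). The shares of all probe sets called under these settings are not given here. Without each array, 0 to 1 were higher at naxillin 2 h. The cause was not tested. With a replicate block AT4G36180 was called at NAA 2 h against before (0.59; limma, adjusted p = 0.0106). The main fit left out the replicate numbers, though arrays of the same number were partly alike. Of 30 same-numbered pairs of arrays, 23 had deviations from group means correlated above 0.1 (range -0.23 to 0.63). In 11 of 15 arrays the best match in another group had the same number. The SE and p-values of the main fit do not take this likeness into account, and some calls differed with the block. Taking the mean of all probe sets could change nothing here, since each kinase has 1.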
